A study of Mus musculus with 46 samples.

Results

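Complement and coagulation proteins of the blood are made mostly by the liver, and their transcripts were followed here in the livers of virgin and pregnant SKH:QS mice, a laboratory mouse stock, after topical sunscreen. The set was a list of 43 genes, and a gene was taken as measured when a probe set of the array carried its symbol alone. This gave 40 measured genes of the 43 listed. For the gene with several such probe sets, Fga, the one of highest mean was used. C3 and Cpb2 had no probe set under this rule and Klkb1 shared one with Cyp4v3, so these 3 genes were not analysed here.

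Liver RNA of 46 mice was measured on Affymetrix whole-transcript arrays with a separate array for each mouse. The mice belonged to 2 experiments, a virgin one with 24 mice and one with 22 mice at about day 17 of gestation. Mice were either left untreated or had sunscreen put on the back, and the sunscreen held no particles (formulation), 68ZnO microparticles (micro ZnO) or 68ZnO nanoparticles (nano ZnO). Treatment ran for 4 days with 6 applications, and livers came from day 5. There were 6 virgin mice per arm. Among pregnant mice the untreated and micro ZnO arms had 5 mice each and the formulation and nano ZnO arms 6 each. The labels name no mutant allele for any group. Single housing, Elizabethan collars and killing by cervical dislocation after Xylase and ketamine are given for all groups, the untreated ones included. The labels call the mice of a group biological replicates.

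Complement is a chain of plasma proteins, some of them proteases. The classical and lectin branches cleave C4 and C2, the alternative branch adds factor B and properdin, and all converge on C3 and on C5, after which C6, C7, C8 and C9 build the membrane attack complex. Coagulation runs through the contact proteins and the vitamin K dependent factors to thrombin, which turns fibrinogen into fibrin, while antithrombin, the protein C system and plasmin hold it back or undo it. Hepatocytes make nearly all of these proteins, and in the acute-phase response of the liver fibrinogen and several complement genes are known to be transcribed more.

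Values are log2 intensities normalized with RMA, so a difference of 1 is a doubling. Arrays within an experiment correlated at 0.968 to 0.990 over all probe sets. Array medians were 4.66 to 4.90 in virgin mice and 3.98 to 4.12 in pregnant mice, so the main comparison of levels between the experiments follows a common normalization. On the deposited values the hepatocyte markers had group means of 12.68 to 12.74 in virgin and 12.25 to 12.27 in pregnant mice. These means are not on a common scale, and no difference is read from them. The 40 genes lay high among the probe sets with a gene symbol, with a median over arrays between the 57.9th percentile (C6) and the 99.9th (Vtn). In whole liver, less RNA per cell and fewer cells of a type cannot be told apart. Whole-transcript probe sets cannot be assumed to separate C4b from its near-identical neighbour or Kng1 from Kng2, so these values are uncertain as to the copy measured.

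Upstream sequence of 33 of the 43 listed genes was held in the RefSeq promoter table of build GRCm38.p6, with 34 promoters in all. The 250 bases before the start are printed for 5 genes on which the results turn: C9, the gene with the largest difference between the untreated groups; Hc, F11 and F9, which changed in virgin mice; and Fgb, a fibrinogen gene that passed no test in any sunscreen arm. Capitals mark matches to the motifs searched, on either strand.
C9, chr15:6445096-6445345, plus strand: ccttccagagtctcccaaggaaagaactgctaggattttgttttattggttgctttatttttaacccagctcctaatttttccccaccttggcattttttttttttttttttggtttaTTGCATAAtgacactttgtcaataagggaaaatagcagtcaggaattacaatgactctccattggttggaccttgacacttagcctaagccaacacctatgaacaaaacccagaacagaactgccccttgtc
Hc, chr2:35061413-35061662, minus strand: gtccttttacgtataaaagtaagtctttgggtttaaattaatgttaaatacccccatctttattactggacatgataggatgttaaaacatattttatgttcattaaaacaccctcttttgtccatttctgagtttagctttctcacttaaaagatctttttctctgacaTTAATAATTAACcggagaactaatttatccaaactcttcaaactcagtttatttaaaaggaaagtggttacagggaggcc
F11, chr8:45262032-45262281, minus strand: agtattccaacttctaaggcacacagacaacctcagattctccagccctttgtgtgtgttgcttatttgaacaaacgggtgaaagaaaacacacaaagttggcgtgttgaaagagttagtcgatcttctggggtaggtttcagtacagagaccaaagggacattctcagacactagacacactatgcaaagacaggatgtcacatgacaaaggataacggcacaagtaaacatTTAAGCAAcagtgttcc
F9, chrX:59999214-59999463, plus strand: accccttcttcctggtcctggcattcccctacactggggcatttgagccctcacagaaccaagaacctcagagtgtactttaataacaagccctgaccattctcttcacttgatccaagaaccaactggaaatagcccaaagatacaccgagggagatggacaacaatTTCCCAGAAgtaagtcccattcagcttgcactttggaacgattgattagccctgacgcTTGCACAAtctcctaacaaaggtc
Fgb, chr3:83049864-83050113, minus strand: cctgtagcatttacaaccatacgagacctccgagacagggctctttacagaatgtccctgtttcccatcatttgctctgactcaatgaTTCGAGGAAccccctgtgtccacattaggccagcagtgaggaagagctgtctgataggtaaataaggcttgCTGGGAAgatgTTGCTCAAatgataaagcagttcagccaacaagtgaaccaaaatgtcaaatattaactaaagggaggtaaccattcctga

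Motifs searched on both strands of the 250 bases were the STAT core TTCNNNGAA, the type 2 IL-6 response element CTGGGAA, the C/EBP motif TTGCNNAA and the palindromic HNF1 site. The STAT core was found in 6 of the 34 promoters (C8a, F9, Fga, Fgb, Masp2 and Pros1), beside 7.02% of all 32851 promoters of that length. The IL-6 element was found in 4 (F9, Fgb, Fgg and Masp2), beside 9.1% of all promoters, and in F9 and Masp2 it overlapped the STAT core on the opposite strand. The C/EBP motif was found in 9 (C3, C9, F11, F9, Fga, Fgb, Hrg, Klkb1 and Kng2), beside 9.56%. The 12-base HNF1 motif was found in Hc alone of the 34, beside 0.0609% of all promoters. A match is a description of the letters and not a bound site, and no match says only that these letters are not in this window.

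Each sunscreen arm was set against the untreated mice of its own experiment, to ask which of these transcripts differed after topical treatment. In virgin mice C4b rose and C8g, C6 and F11 fell in all 3 sunscreen arms, while the fibrinogen genes passed no test on the probe sets used. Several of the C6 and F11 calls were lost when 1 array was left out. A second probe set of Fga was called lower with nano ZnO, at -0.77 (adjusted p = 0.0184 in limma). In virgin formulation mice 13 of the 40 genes were called, 3 higher and 10 lower, at an adjusted p under 0.05 in limma. The test and its adjustment ran over the 23410 probe sets with a gene symbol. Below, all probe sets means these 23410, unless the 35512 of the whole array are named. Among the 23410, 26.5% were called, 11.5% as higher and 15% as lower. Micro ZnO gave 8 calls, 4 higher and 4 lower, against a background of 4.43% (1.63% for rises and 2.8% for falls), and nano ZnO gave 7 calls, 3 higher and 4 lower, against a background of 11.9% (4.77% for rises and 7.18% for falls). The median log2 difference of the 40 genes was -0.01, 0.02 and -0.04 in these arms, beside 0.03, 0.01 and 0.02 over all probe sets. The groups did not overlap at all for 8, 6 and 5 of the 40 genes, beside 9.5%, 3.31% and 4.96% of all probe sets. The 3 comparisons share the untreated mice, so their values are not independent of each other.

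**Figure D1:**
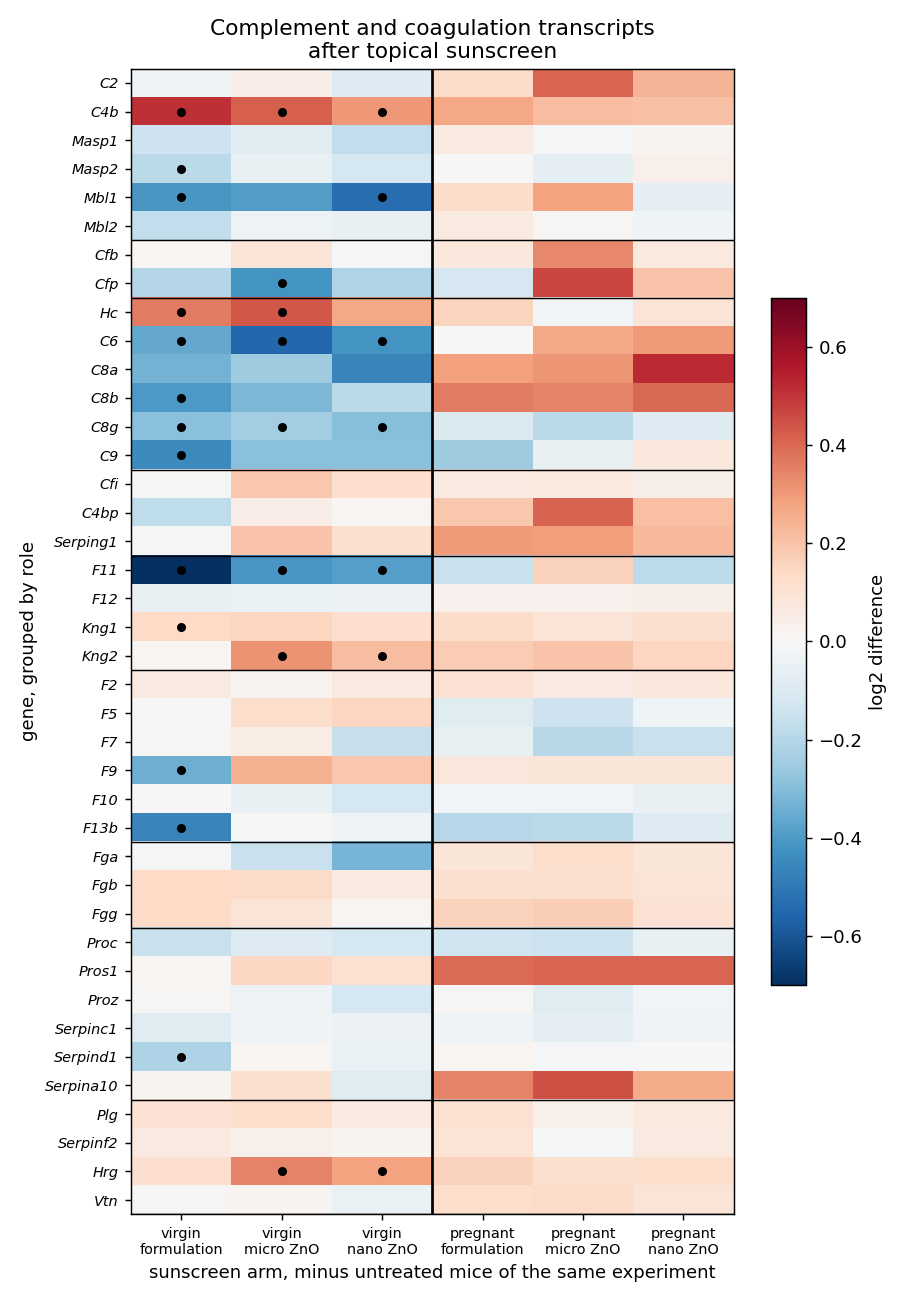
Log2 difference of each of the 40 measured genes (rows, grouped by role, lines between roles) in the 6 sunscreen arms (columns), each minus the untreated mice of the same experiment, with a black dot where the adjusted p was under 0.05. All dots are in the virgin columns, with 13, 8 and 7 genes called in the formulation, micro ZnO and nano ZnO arms, and the pregnant columns hold 0.

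In pregnant mice 0 of the 40 genes passed the limma test in any sunscreen arm, while 5, 8 and 7 of them had an unadjusted p under 0.05 with formulation, micro ZnO and nano ZnO, beside 12.3%, 9.08% and 10.2% of all probe sets. At the adjusted threshold few genes of any kind passed there, 0.0598%, 0.107% and 0.0214% of all probe sets. The median log2 difference of the 40 genes was 0.08, 0.09 and 0.07, beside 0.00, -0.00 and 0.01 over all probe sets. The groups did not overlap for 2, 5 and 1 of the genes, beside 2.36%, 1.34% and 1.29% of all. Of 6 acute-phase reference genes 6, 6 and 5 were called higher in the virgin arms (formulation, micro ZnO, nano ZnO) and 5, 6 and 4 in the pregnant arms. Those not called were Orm1 with virgin nano ZnO (0.27, adjusted p = 0.117), Hpx with pregnant formulation (0.36, adjusted p = 0.0751) and nano ZnO (0.34, adjusted p = 0.148), and Hp with pregnant nano ZnO (0.53, adjusted p = 0.0782). Saa1, which encodes serum amyloid A, rose by 3.84, 3.82 and 2.93 in the virgin arms and by 3.99, 4.46 and 3.56 in the pregnant arms. Orm2, an alpha-1-acid glycoprotein gene, rose by 3.08, 3.15 and 2.61 and by 3.06, 3.16 and 2.82.

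Other measures moved with the virgin arms, and their part in the results below was not tested beyond the values given. A score of clock genes had a mean of -0.99 (-1.25 to -0.81) in untreated, -0.30 in formulation, 0.65 in micro ZnO and 0.65 in nano ZnO mice, and the interquartile range of the array was 2.97, 2.83, 2.91 and 2.90. When the fit included that score 5 calls were made with formulation (C4b, C8g, F11, F13b and Proc) and 0 with micro ZnO or nano ZnO. With the interquartile range as a covariate 2 remained with formulation (C4b and F11), 3 with micro ZnO (C4b, Kng2 and Hrg) and 4 with nano ZnO (C4b, C8g, Kng2 and Hrg). Every micro ZnO mouse (from -0.19) and nano ZnO mouse (from 0.35) had a clock score above every untreated mouse (up to -0.81). Every formulation array had a smaller interquartile range (up to 2.89) than every untreated array (from 2.90). There the covariate and the arm can hardly be separated, so no cause is read from calls lost in these fits, here or below. Neutrophil markers had group means of 4.21 in untreated, 4.64 in formulation, 4.27 in micro ZnO and 4.74 in nano ZnO mice, with 5, 0 and 4 of 10 markers higher. Endothelial markers averaged 6.13, 6.10 and 6.09 with formulation, micro ZnO and nano ZnO, below the lowest untreated mouse at 6.30, and 6, 5 and 6 of 12 markers fell. Of 7 hepatocyte markers 0 passed in any of these arms. In pregnant mice the clock score averaged -0.67 in untreated, 0.42 in formulation, 0.25 in micro ZnO and -0.07 in nano ZnO mice.

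The count of calls also hung on single arrays. For formulation it was 8 without virgin formulation replicate 5 (C6, F9, Hc, Kng1 and Serpind1 were lost), and a further quantile normalization of the virgin arrays also left 8 (C9, F9, Masp2, Mbl1 and Serpind1 were lost). For micro ZnO it was 5 without virgin untreated replicate 3 or 5. For nano ZnO it was 4 without virgin untreated replicate 3 or 5, and also 4 without virgin nano ZnO replicate 4. A test over all 35512 probe sets of the array lost C6 and Hc with formulation and F11 and Hc with micro ZnO. With nano ZnO it lost C6, F11 and Kng2. A fit of only the groups compared lost C6, Kng1, Masp2 and Serpind1 with formulation, C8g, F11 and Hc with micro ZnO and F11 and Kng2 with nano ZnO. The further quantile normalization also lost C8g and F11 with micro ZnO and F11 with nano ZnO, and array weights lost Kng1 with formulation.

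**Figure D2:**
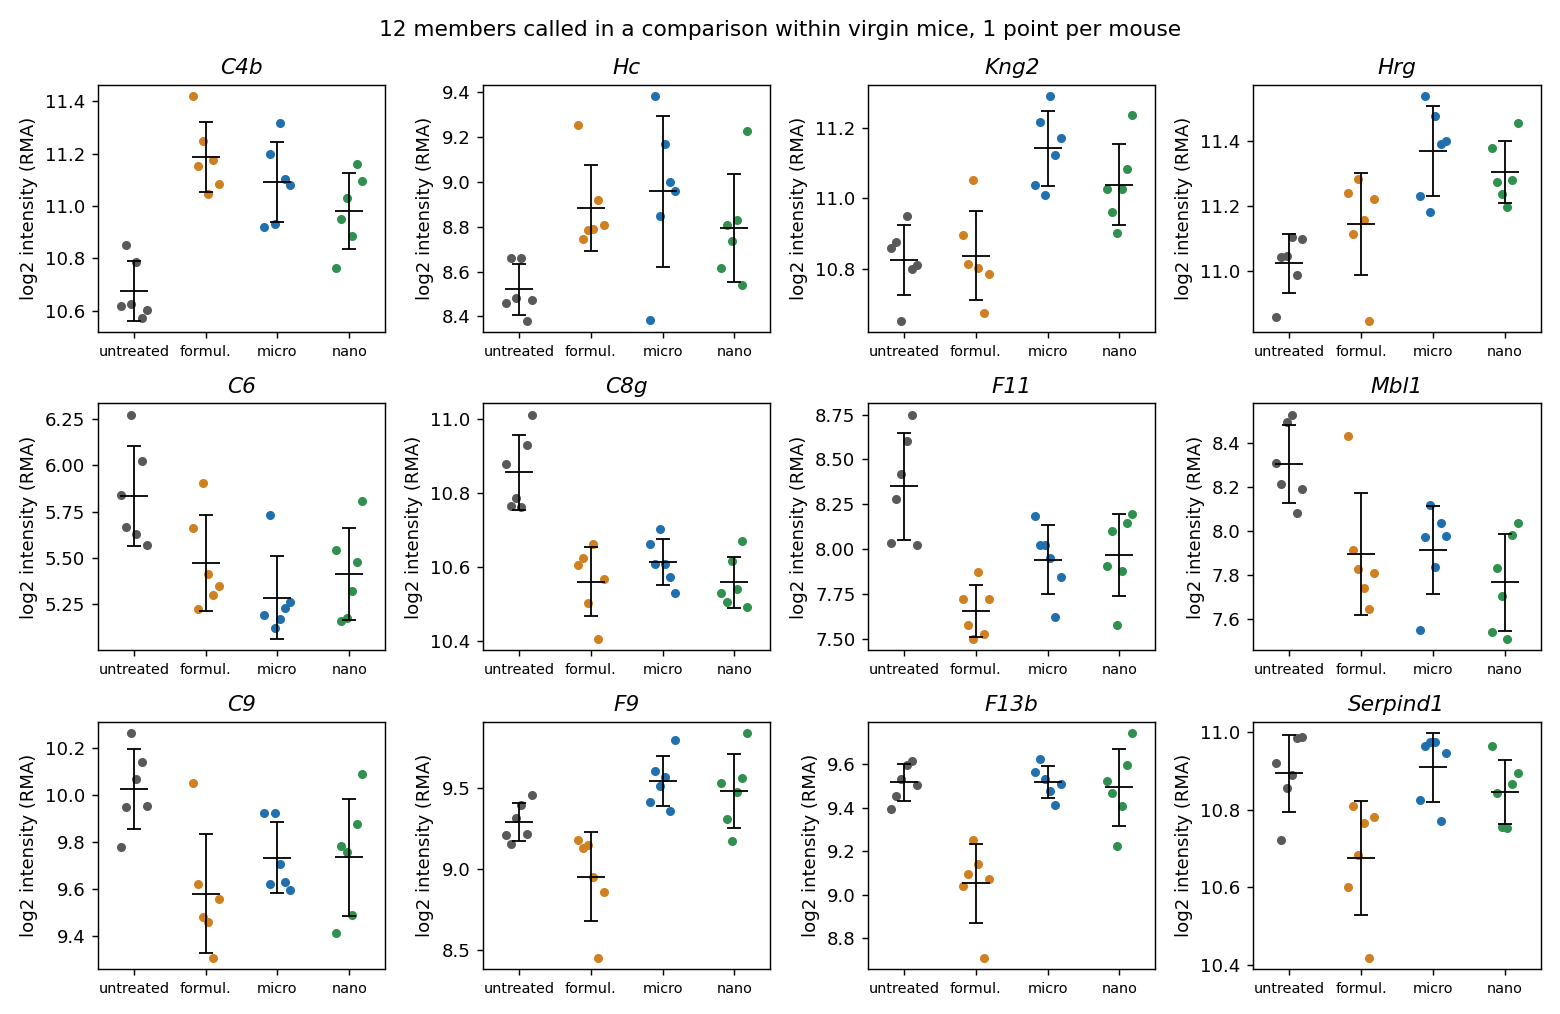
RMA log2 intensity (vertical axis) of 12 genes called in a comparison within virgin mice, with 1 point per mouse, a horizontal mark at the mean and bars of 1 SD, for 6 mice in each of the 4 arms. All treated mice lay below the untreated ones for C8g and above them for C4b, except 1 nano ZnO mouse of C4b, and F9, F13b and Serpind1 were low in the formulation arm alone.

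The classical and lectin branches were represented by C2, C4b, Masp1, Masp2, Mbl1 and Mbl2. C4b encodes C4, the substrate of both branches. Its log2 values ran from 10.57 to 10.85 in untreated virgin mice (median 10.62), from 11.04 to 11.42 with formulation (11.16), from 10.92 to 11.32 with micro ZnO (11.09) and from 10.76 to 11.16 with nano ZnO (10.99). The formulation and micro ZnO groups lay above every untreated mouse, and 5 of 6 nano ZnO mice did. C4b thus rose by 0.51 ± 0.08 (SE, 6 against 6 mice, adjusted p = 0.000153), 0.42 ± 0.08 (adjusted p = 0.00394) and 0.31 ± 0.08 (adjusted p = 0.0161), and these calls were kept when any 1 array was left out.

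In pregnant mice the same gene C4b stood at 10.55, 10.61, 10.61, 10.36 and 10.82 in the untreated mice and at 10.61, 10.87, 10.82, 11.02 and 10.73 with micro ZnO. It ran from 10.58 to 11.04 with formulation (median 10.88) and from 10.66 to 10.96 with nano ZnO (10.80), so the groups overlapped. The differences were 0.27 ± 0.09, 0.22 ± 0.10 and 0.21 ± 0.09 for formulation, micro ZnO and nano ZnO, with adjusted p of 0.287, 0.482 and 0.457. The response of pregnant minus that of virgin mice was -0.24 with formulation (95% interval -0.48 to 0.00, adjusted p = 0.495), -0.20 with micro ZnO (-0.45 to 0.05) and -0.10 with nano ZnO (-0.34 to 0.15), which neither shows a difference nor that the responses were alike.

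Mbl1, one of the mannose-binding lectins that start the lectin branch, went the other way in virgin mice. It ran from 8.08 to 8.53 in untreated mice (median 8.26), from 7.65 to 8.43 with formulation (7.82), from 7.55 to 8.12 with micro ZnO (7.97) and from 7.51 to 8.04 with nano ZnO (7.77). Every nano ZnO mouse was below every untreated one, and 5 of 6 mice were in each of the other arms. Mbl1 fell by 0.41 ± 0.12 with formulation (adjusted p = 0.0144) and by 0.54 ± 0.12 with nano ZnO (adjusted p = 0.00528), calls kept when any 1 array was left out, while with micro ZnO the difference was -0.39 ± 0.12 (adjusted p = 0.0594). A further quantile normalization of the virgin arrays took the formulation value to -0.26 (adjusted p = 0.110). With the interquartile range as a covariate the Mbl1 values were -0.15 with formulation (adjusted p = 0.768) and -0.41 with nano ZnO (adjusted p = 0.0574), and with the clock score they were -0.19 (adjusted p = 0.300) and -0.01 (adjusted p = 0.997). The other lectin, Mbl2, had differences of -0.17, -0.04 and -0.05 that did not pass.

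Masp2, the protease that cleaves C4 and C2 in the lectin branch, fell with formulation by 0.19 ± 0.06 (adjusted p = 0.0230), with every treated mouse below every untreated one. The call of Masp2 was not made without virgin untreated replicate 3 or 5. With micro ZnO and nano ZnO the differences of Masp2 were -0.05 and -0.12, and did not pass.

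C2, the protease joined to C4 in the C3 convertase of both branches, differed by -0.03, 0.05 and -0.09 in the virgin arms and passed in none. In pregnant mice C2 stood at 6.81, 6.90, 6.86, 6.60 and 6.98 in the untreated group and at 7.06, 7.33, 7.26, 7.41 and 7.12 with micro ZnO. These 2 groups did not overlap, with all 5 treated mice above all 5 untreated ones. The difference was 0.41 ± 0.11, the member with the smallest p in that comparison, and its adjusted p over all probe sets was 0.170. With formulation and nano ZnO the differences of C2 were 0.13 and 0.24 (adjusted p = 0.608 and 0.448).

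Of the alternative branch only Cfb and Cfp were measured. Cfb encodes factor B, and its differences of 0.02, 0.09 and -0.02 in virgin mice did not pass. Cfp encodes properdin, which stabilises the alternative convertase and is made mainly by leukocytes. Cfp ran from 6.96 to 7.42 in untreated virgin mice (median 7.14), from 6.76 to 7.31 with formulation (6.88), from 6.53 to 7.02 with micro ZnO (6.67) and from 6.64 to 7.15 with nano ZnO (6.96). It fell by 0.42 ± 0.11 with micro ZnO (adjusted p = 0.0250), where 5 of 6 mice lay below every untreated mouse. The call was lost without virgin micro ZnO replicate 1 (adjusted p = 0.0624), without replicate 6 (0.0504) and without virgin untreated replicate 1 (0.0707). With the interquartile range as a covariate the Cfp value was -0.27 (adjusted p = 0.0935).

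In pregnant mice Cfp had the opposite sign with micro ZnO. The untreated values were 6.67, 6.23, 6.84, 6.30 and 6.80, and the micro ZnO values were 6.67, 6.81, 6.88, 7.88 and 6.93. Replicate 4 of the micro ZnO arm was the highest by a wide gap, and the groups overlapped. The difference of Cfp was 0.47 ± 0.18 (adjusted p = 0.402), and the response of pregnant minus virgin mice was 0.88 ± 0.21 (95% interval 0.46 to 1.30, adjusted p = 0.110 over all probe sets). Neutrophil markers had a mean of 5.54 in that arm (lowest mouse 5.05) and 4.52 in the untreated pregnant mice (lowest 4.25). Macrophage markers averaged 6.81 and 6.51. Their part in the Cfp value was not tested.

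Of the 6 genes of the terminal pathway, from C5 to C9, 1 was higher and 4 lower in virgin formulation mice. Of all probe sets 11.5% were higher and 15% lower there. With the interquartile range as a covariate none of these terminal calls was made, and with the clock score only that of C8g was. Hc encodes C5, whose cleavage starts the pathway. Hc ran from 8.38 to 8.66 in untreated virgin mice (median 8.48), from 8.74 to 9.25 with formulation (8.80), from 8.38 to 9.38 with micro ZnO (8.98) and from 8.54 to 9.23 with nano ZnO (8.77). All formulation mice lay above all untreated ones, and 5 of 6 micro ZnO and 4 of 6 nano ZnO mice did. Hc rose by 0.36 ± 0.13 with formulation (adjusted p = 0.0340) and by 0.44 ± 0.13 with micro ZnO (adjusted p = 0.0445), and the nano ZnO difference was 0.27 ± 0.13 (adjusted p = 0.151). Both calls were close to the threshold. The formulation call was lost without formulation replicate 1 or 5 or untreated replicate 1, 3, 5 or 6 (adjusted p 0.0547 to 0.0889). The micro ZnO call was lost when any of replicates 2 to 6 of that arm, or untreated replicate 1, 3, 4, 5 or 6, was left out (adjusted p 0.0530 to 0.0967).

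C6, which encodes the first protein to join C5b, had the lowest median percentile of intensity among the 40 genes. C6 ran from 5.57 to 6.27 in untreated virgin mice (median 5.75), from 5.22 to 5.91 with formulation (5.38), from 5.12 to 5.73 with micro ZnO (5.21) and from 5.16 to 5.81 with nano ZnO (5.40). With micro ZnO and with nano ZnO 5 of 6 mice lay below every untreated mouse, and 4 of 6 did with formulation. It fell by 0.36 ± 0.13 (adjusted p = 0.0470), 0.55 ± 0.13 (adjusted p = 0.0184) and 0.42 ± 0.13 (adjusted p = 0.0393) with formulation, micro ZnO and nano ZnO. Of the arrays left out in turn, untreated replicate 3 alone ended the micro ZnO call (adjusted p = 0.0530). The formulation call was lost without formulation replicate 2, 4, 5 or 6 or untreated replicate 1, 3 or 5 (adjusted p 0.0716 to 0.132), and the nano ZnO call without nano ZnO replicate 2, 3, 4 or 5 or untreated replicate 1, 3 or 5 (adjusted p 0.0505 to 0.109). With the interquartile range as a covariate the C6 values were -0.01 (adjusted p = 0.986), -0.41 (adjusted p = 0.0834) and -0.25 (adjusted p = 0.302), and no C6 call was made with the clock score either.

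In pregnant mice C6 stood at 4.96, 4.71, 4.82, 4.57 and 5.18 in the untreated group and at 5.13, 5.37, 4.39, 5.26 and 5.41 with micro ZnO, where replicate 3 was the lowest of all 10 mice. The differences of C6 were 0.00, 0.26 and 0.30 with formulation, micro ZnO and nano ZnO, with adjusted p of 0.996, 0.623 and 0.476. The response of pregnant minus virgin mice was 0.81 ± 0.20 with micro ZnO and 0.72 ± 0.20 with nano ZnO (adjusted p = 0.129 and 0.341). When pregnant micro ZnO replicate 3 was left out the micro ZnO difference between experiments was called for C6.

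C8 has 3 chains, and the differences of their transcripts were negative in all 3 virgin sunscreen arms, though not all were called. The chains were not compared with each other. C8g, which encodes the lipocalin-like gamma chain, ran from 10.76 to 11.01 in untreated virgin mice (median 10.83), from 10.40 to 10.66 with formulation (10.58), from 10.53 to 10.70 with micro ZnO (10.61) and from 10.49 to 10.67 with nano ZnO (10.53). No treated virgin mouse reached the untreated range. It fell by 0.29 ± 0.06 (adjusted p = 0.00124), 0.24 ± 0.06 (adjusted p = 0.0225) and 0.30 ± 0.06 (adjusted p = 0.00294). The formulation and nano ZnO calls of C8g were kept when any 1 array was left out, and the micro ZnO call was lost without untreated replicate 5 (adjusted p = 0.0555), on a further quantile normalization (adjusted p = 0.0526) and with only the groups compared in the fit (adjusted p = 0.0521). With the clock score as a covariate C8g was at -0.13 with micro ZnO and -0.19 with nano ZnO (adjusted p = 0.824 and 0.660), and with the interquartile range the micro ZnO and formulation calls were not made. In pregnant mice the differences of C8g were -0.10, -0.19 and -0.09, and none passed.

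C8b encodes the beta chain. It ran from 10.07 to 10.64 in untreated virgin mice (median 10.33), from 9.75 to 10.27 with formulation (9.87), from 9.86 to 10.23 with micro ZnO (10.00) and from 9.97 to 10.35 with nano ZnO (10.12). C8b fell with formulation by 0.40 ± 0.10 (adjusted p = 0.00487), with 4 of 6 mice below every untreated one and the groups overlapping, and this call was kept when any 1 array was left out. The micro ZnO and nano ZnO differences of C8b were -0.32 ± 0.10 and -0.19 ± 0.10 (adjusted p = 0.0663 and 0.208).

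In pregnant mice C8b stood at 8.48, 8.97, 8.74, 9.14 and 9.35 in the untreated group and at 9.20, 9.46, 9.05, 9.32 and 9.38 with micro ZnO. It ran from 9.21 to 9.60 with formulation (median 9.25) and from 9.08 to 9.68 with nano ZnO (9.34). The treated groups lay in the upper part of the untreated range and above it. The differences were 0.36 ± 0.13, 0.35 ± 0.13 and 0.40 ± 0.13, with adjusted p of 0.306, 0.405 and 0.335, so none was called against the untreated pregnant mice. The response to formulation nevertheless differed between the experiments, by 0.77 ± 0.16 (pregnant minus virgin, 95% interval 0.44 to 1.09, adjusted p = 0.0285). C8b was the 1 member called in this test, where 0.145% of all probe sets were. The call was lost without virgin formulation replicate 2, 4, 5 or 6, virgin untreated replicate 3 or 4, pregnant formulation replicate 3 or pregnant untreated replicate 1 or 3 (adjusted p 0.0502 to 0.110), and when the fit included the interquartile range (0.0972), and the value stayed between 0.65 and 0.87. For micro ZnO and nano ZnO the difference between experiments was 0.66 and 0.59 (adjusted p = 0.129 and 0.337). Those comparisons called 0 of the 40 genes, where 0.047% and 0.0427% of all probe sets were called.

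C8a encodes the alpha chain, the part of C8 that inserts into the membrane. C8a ran from 9.19 to 9.87 in untreated virgin mice (median 9.58), from 8.69 to 9.97 with formulation (9.06), from 9.13 to 9.41 with micro ZnO (9.28) and from 8.57 to 9.45 with nano ZnO (9.11). The differences of -0.33, -0.25 and -0.46 did not pass (adjusted p = 0.113, 0.377 and 0.0520). In pregnant mice the untreated values were 8.34, 8.57, 8.69, 8.68 and 8.87, and the 6 nano ZnO mice, from 8.88 to 9.44 (median 9.15), lay above all of them. The nano ZnO difference of C8a was 0.52 ± 0.15, the smallest p of any member in that comparison, and its adjusted p was 0.262. The response of pregnant minus virgin mice to nano ZnO was 0.99 ± 0.23 for C8a (95% interval 0.53 to 1.44), with an adjusted p of 0.115.

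**Figure D3:**
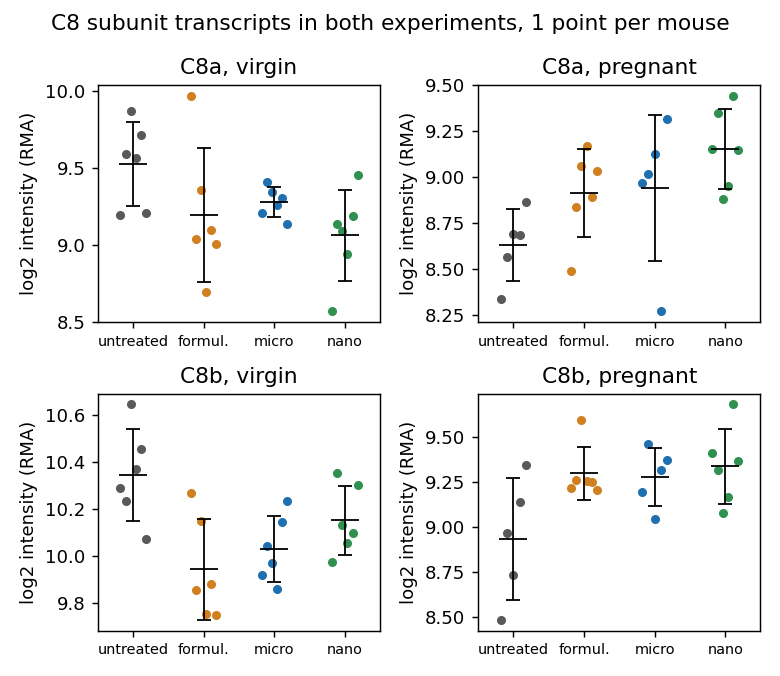
RMA log2 intensity of C8a (upper panels) and C8b (lower panels) in virgin mice (left) and pregnant mice (right), with 1 point per mouse, a mark at the mean and bars of 1 SD, over the 4 arms. Medians of the treated arms lie below the untreated median in virgin mice (C8b 9.87 to 10.12 against 10.33). In pregnant mice they lie above it (C8b 9.25 to 9.34 against 8.97). Values are as deposited, so levels are not to be compared between virgin and pregnant panels.

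C9, which forms the pore of the membrane attack complex, ran from 9.78 to 10.26 in untreated virgin mice (median 10.01), from 9.31 to 10.05 with formulation (9.52), from 9.60 to 9.92 with micro ZnO (9.67) and from 9.41 to 10.09 with nano ZnO (9.77). With formulation 5 of 6 mice lay below every untreated mouse. C9 fell by 0.45 ± 0.11 with formulation (adjusted p = 0.00634), a call kept when any 1 array was left out and lost on a further quantile normalization (adjusted p = 0.0521). The micro ZnO and nano ZnO differences were -0.29 and -0.29 (adjusted p = 0.139 and 0.0940). The differences of C9 from untreated in pregnant mice were -0.25, -0.05 and 0.07, with SEs of 0.25 to 0.26, and none passed.

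The complement regulators measured were Cfi, which encodes the protease factor I, C4bp, the C4b-binding protein, and Serping1, the C1 inhibitor that also holds the contact proteases in check. None was called in a virgin arm, where the differences of Serping1 were 0.01, 0.20 and 0.11. In pregnant mice Serping1 was among the 3 members of smallest p in every arm. Its untreated values were 11.36, 11.62, 11.47, 11.37 and 11.59, and its micro ZnO values were 11.62, 11.66, 11.86, 11.94 and 11.80. It ran from 11.67 to 11.93 with formulation (median 11.76) and from 11.48 to 11.82 with nano ZnO (11.75). No formulation or micro ZnO mouse lay below the highest untreated mouse, and 5 of 6 nano ZnO mice lay above it. The differences of Serping1 were 0.30 ± 0.08, 0.29 ± 0.09 and 0.23 ± 0.08, with adjusted p of 0.217, 0.220 and 0.380.

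C4bp in pregnant mice stood at 9.99, 10.03, 10.05, 9.66 and 10.13 in the untreated group and at 10.09, 10.26, 10.82, 10.56 and 10.19 with micro ZnO. The highest C4bp values were those of micro ZnO replicates 3 and 4, and 4 of 5 treated mice lay above every untreated one. The difference was 0.41 ± 0.12 with an adjusted p of 0.200.

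The contact system starts the intrinsic branch of coagulation and releases bradykinin from kininogen. F11 encodes factor XI, the link from the contact proteins to factor IX, and had the largest fall of the 40 genes in virgin formulation mice. F11 ran from 8.02 to 8.75 in untreated virgin mice (median 8.35), from 7.50 to 7.87 with formulation (7.65), from 7.62 to 8.18 with micro ZnO (7.99) and from 7.58 to 8.19 with nano ZnO. All formulation mice lay below all untreated ones, while 3 of 6 mice did in each ZnO arm. It fell by 0.70 ± 0.12 with formulation (adjusted p = 0.000315), a call kept when any 1 array was left out. With micro ZnO and nano ZnO F11 fell by 0.41 ± 0.12 (adjusted p = 0.0488) and 0.38 ± 0.12 (adjusted p = 0.0364). These were lost without any 1 of micro ZnO replicates 2 to 6 or untreated replicates 2 to 5 for micro ZnO (adjusted p 0.0532 to 0.124), and without nano ZnO replicate 1, 3 or 4 or untreated replicate 3, 4 or 5 for nano ZnO (adjusted p 0.0620 to 0.106). With the clock score as a covariate the values of F11 in these arms were -0.65 and -0.62 (adjusted p = 0.470 and 0.427). In pregnant mice the differences of F11 were -0.15, 0.16 and -0.18, and none passed.

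Kng1 and Kng2 encode kininogens. Kng2 ran from 10.65 to 10.95 in untreated virgin mice (median 10.83), from 10.68 to 11.05 with formulation (10.81), from 11.01 to 11.29 with micro ZnO (11.15) and from 10.90 to 11.24 with nano ZnO (11.03). Every micro ZnO mouse and 5 of 6 nano ZnO mice lay above every untreated mouse, while the formulation group overlapped the untreated range. Kng2 rose by 0.32 ± 0.07 with micro ZnO (adjusted p = 0.0111), a call kept when any 1 array was left out, and by 0.21 ± 0.07 with nano ZnO (adjusted p = 0.0486). The nano ZnO call was lost without nano ZnO replicate 1, 2, 4, 5 or 6 or untreated replicate 1, 3, 5 or 6 (adjusted p 0.0513 to 0.119). With formulation the difference was 0.01 ± 0.07.

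Kng1 was near the top of the intensity range, at 12.58 to 12.71 in untreated virgin mice (median 12.65), 12.70 to 12.93 with formulation (12.77), 12.71 to 12.87 with micro ZnO (12.80) and 12.71 to 12.81 with nano ZnO (12.76). Kng1 rose by 0.14 ± 0.05 with formulation (adjusted p = 0.0459), with 5 of 6 mice above every untreated one. This call was lost without formulation replicate 1, 3, 4, 5 or 6 or untreated replicate 1, 3, 4, 5 or 6 (adjusted p 0.0546 to 0.104). The ZnO arms of Kng1 had differences of 0.15 and 0.12 that did not pass, although all mice of both lay above all untreated mice. F12, which encodes factor XII, had differences of -0.05, -0.05 and -0.04 and passed in no arm.

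Of 6 procoagulant factor genes, F9 and F13b fell in virgin formulation mice and no other passed in a virgin arm. F13b encodes the carrier subunit of factor XIII, which crosslinks fibrin. F13b ran from 9.39 to 9.61 in untreated virgin mice (median 9.52), from 8.71 to 9.25 with formulation (9.08), from 9.41 to 9.62 with micro ZnO (9.52) and from 9.22 to 9.74 with nano ZnO (9.49). Every formulation mouse was below every untreated one, and the ZnO groups overlapped the untreated range. F13b fell by 0.46 ± 0.08 (adjusted p = 0.000381), a call kept when any 1 array was left out, and the ZnO differences were 0.00 and -0.02.

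F9 encodes factor IX, lacking in haemophilia B. It ran from 9.16 to 9.46 in untreated virgin mice (median 9.27), from 8.45 to 9.18 with formulation (9.04), from 9.36 to 9.80 with micro ZnO (9.54) and from 9.17 to 9.84 with nano ZnO (9.50). With formulation 5 of 6 mice lay below every untreated mouse, and with each ZnO arm 4 of 6 lay above. F9 fell by 0.34 ± 0.11 with formulation (adjusted p = 0.0262), a call not made without formulation replicate 5 or 6 or untreated replicate 4 or 6, and the ZnO differences were 0.25 ± 0.11 and 0.19 ± 0.11 (adjusted p = 0.190 and 0.268).

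The remaining procoagulant genes were F2 (prothrombin), F5, F7 and F10. Their differences in virgin arms were 0.06, 0.02 and 0.06 for F2, 0.00, 0.12 and 0.15 for F5, 0.01, 0.05 and -0.16 for F7, and -0.00, -0.05 and -0.12 for F10. None passed.

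The particle arms were then compared with the particle-free base, as the mean of micro ZnO and nano ZnO minus formulation. In virgin mice 4 of the 40 genes were higher and 0 lower, against a background of 9.06% (6.5% for rises and 2.57% for falls). F9 was higher by 0.56 ± 0.10 (adjusted p = 0.000899), F13b by 0.45 ± 0.07 (adjusted p = 0.000404), Kng2 by 0.25 ± 0.06 (adjusted p = 0.0110) and Serpind1 by 0.20 ± 0.06 (adjusted p = 0.0339). For F9 and F13b every alternative setting kept the call. The Serpind1 call was lost without formulation replicate 1 or 5, micro ZnO replicate 2, 3 or 4 or nano ZnO replicate 1 or 6 (adjusted p 0.0505 to 0.128). Against untreated mice F9, F13b and Serpind1 were called lower with formulation and were not called in either ZnO arm.

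The sizes of the particles were compared as nano ZnO minus micro ZnO, compounds that share the element and isotope and differ in the labelled particle size. In virgin mice 0 of the 40 genes differed in limma (1 at an unadjusted p under 0.05, beside 4.72% of all probe sets), where 0% of all probe sets were called, and for 0 of 40 the groups did not overlap (0.175% of all). The smallest p was that of F7, at -0.22 ± 0.07 (95% interval -0.37 to -0.06, adjusted p = 0.993). In pregnant mice 0 differed, again beside 0% of all probe sets, with 3 at an unadjusted p under 0.05, beside 4.64%, and the value of smallest p was that of F11, at -0.34 ± 0.10 (95% interval -0.54 to -0.15, adjusted p = 0.979), with all nano ZnO mice below all micro ZnO mice, as was so in some direction for 0.29% of all probe sets. The particle arms minus formulation also called 0 of 40 in pregnant mice, beside 0% of all, with 3 at an unadjusted p under 0.05, beside 5.04%. A p that misses the threshold does not show that the particle sizes act alike, and for C4b the interval of nano ZnO minus micro ZnO ran from -0.28 to 0.06 in virgin mice.

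Fibrinogen, the substrate of thrombin and a classical acute-phase protein, is made of 3 chains encoded by Fga, Fgb and Fgg. On the probe sets used, none was called in any of the 6 sunscreen arms. Fgb ran from 12.56 to 12.68 in untreated virgin mice (median 12.62), from 12.67 to 12.97 with formulation (12.73), from 12.65 to 12.84 with micro ZnO (12.78) and from 12.56 to 12.84 with nano ZnO (12.66). The formulation and micro ZnO groups lay high and overlapped the untreated one. The differences of Fgb were 0.14 (95% interval 0.02 to 0.27, adjusted p = 0.0848), 0.13 (0.01 to 0.26, adjusted p = 0.211) and 0.06 (-0.07 to 0.18, adjusted p = 0.566). In pregnant mice they were 0.11, 0.11 and 0.09, with adjusted p of 0.592, 0.773 and 0.713.

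Fgg had differences of 0.14, 0.09 and 0.01 in virgin and 0.16, 0.17 and 0.10 in pregnant mice, and Fga of -0.01, -0.15 and -0.32 in virgin and 0.09, 0.12 and 0.09 in pregnant mice. A second probe set of Fga gave -0.77 ± 0.21 for virgin nano ZnO (adjusted p = 0.0184), beyond the -0.32 ± 0.15 (adjusted p = 0.144) of the one used, so the Fga probe sets disagreed there. Fgb and Fgg lay at a median percentile of 99.9 and 99.8 of the array's probe sets, and Fga lay at the 97.7th percentile. The Fgb upstream sequence printed above held a STAT core, an IL-6 element and a C/EBP motif.

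**Figure D4:**
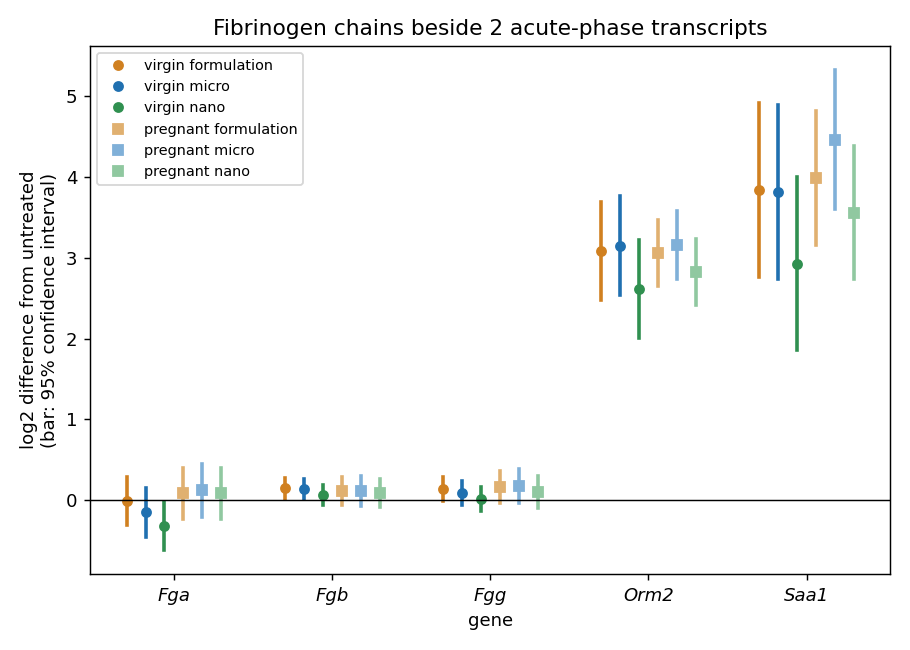
Log2 difference from untreated (points) with its 95% confidence interval (bars) for Fga, Fgb, Fgg and the acute-phase genes Orm2 and Saa1 in the 6 sunscreen arms, circles for virgin and squares for pregnant mice. The fibrinogen values lie between -0.32 and 0.17, while Orm2 and Saa1 lie between 2.61 and 4.46.

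The anticoagulants measured were Proc (protein C), Pros1 (its cofactor protein S), Proz (protein Z), Serpinc1 (antithrombin), Serpind1 (heparin cofactor II) and Serpina10 (the protein Z dependent inhibitor). Serpind1 ran from 10.72 to 10.99 in untreated virgin mice (median 10.91), from 10.42 to 10.81 with formulation (10.72), from 10.77 to 10.97 with micro ZnO (10.95) and from 10.75 to 10.96 with nano ZnO (10.85). Serpind1 fell by 0.22 ± 0.07 with formulation (adjusted p = 0.0227), with 3 of 6 mice below every untreated one, and this was not called without formulation replicate 5. It was the only anticoagulant called in a virgin arm. Proc differed by -0.16 ± 0.06 with formulation (adjusted p = 0.0550), with all treated mice below all untreated mice.

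Pros1 and Serpina10 gave the widest anticoagulant differences in pregnant mice, and neither passed. The Serpina10 differences were 0.35, 0.45 and 0.26 (adjusted p = 0.500, 0.558 and 0.668). For Pros1 the untreated values were 7.17, 7.38, 7.13, 6.68 and 7.36 and the micro ZnO values 7.40, 7.73, 7.52, 7.60 and 7.50, so those groups did not overlap. Pros1 ran from 6.81 to 7.92 with formulation (median 7.62) and from 7.26 to 7.74 with nano ZnO (7.61). The differences were 0.39 ± 0.15, 0.41 ± 0.16 and 0.41 ± 0.15, with adjusted p of 0.322, 0.406 and 0.398.

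Among the genes of fibrinolysis and the matrix-binding plasma proteins, Hrg rose in the ZnO arms of virgin mice. It encodes histidine-rich glycoprotein, a plasma protein that binds zinc, heparin and plasminogen. Hrg ran from 10.86 to 11.10 in untreated virgin mice (median 11.05), from 10.85 to 11.28 with formulation (11.19), from 11.18 to 11.54 with micro ZnO (11.40) and from 11.20 to 11.45 with nano ZnO (11.28). Every micro ZnO and nano ZnO mouse lay above every untreated mouse, and 5 of 6 formulation mice did. Hrg rose by 0.35 ± 0.08 with micro ZnO (adjusted p = 0.00930) and by 0.28 ± 0.08 with nano ZnO (adjusted p = 0.0173). The micro ZnO call was kept when any 1 array was left out, and the nano ZnO call was lost without untreated replicate 1 (adjusted p = 0.0511). With formulation the difference was 0.12 ± 0.08 (adjusted p = 0.237), and the mean of the ZnO arms minus formulation was 0.19 ± 0.07 (adjusted p = 0.0633), so a difference between the ZnO arms and the base was not shown. In pregnant mice the values for Hrg were 0.16, 0.11 and 0.12, and none passed. Plg (plasminogen), Serpinf2 (the plasmin inhibitor) and Vtn (vitronectin) had differences between -0.05 and 0.12 in the virgin arms and passed in none.

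Untreated pregnant mice were set against untreated virgin mice, to give the level of each gene late in gestation. Because the array medians differ between the experiments, all 46 arrays were first quantile-normalized together, and pregnancy and experiment cannot be told apart. On this scale 32 of the 40 genes were called, 24 higher and 8 lower, against a background of 31.8% (14% for rises and 17.8% for falls). For 22 of the 40 genes the groups did not overlap, beside 16.8% of all probe sets. The median log2 difference was 0.26 for the 40 genes and -0.02 over all probe sets. The split depended on the scaling, with 4 higher and 22 lower on the deposited values, 27 higher and 2 lower with arrays centred on their medians, and 24 higher and 7 lower with arrays centred on hepatocyte markers. The deposited values carried a shift of -0.61 in the median of all probe sets. Only F5, F7, F10, Serpina10, C8b and C9 were called in the same direction under all 4 scalings, and 9 genes were called in both directions (C4bp, Hrg, Kng1, Mbl2, Plg, Serpinc1, Serpind1, Serpinf2 and Serping1).

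C9 had the largest difference of the 40. On the jointly normalized scale its untreated pregnant values were 6.83, 7.03, 7.33, 6.75 and 8.02, against 9.48 to 10.03 in untreated virgin mice (median 9.77). The highest pregnant mouse was below the lowest virgin mouse. C9 was lower, at -2.58 ± 0.20 (adjusted p = 3.19e-13), and relative to the shift of all probe sets it was -2.43 on the deposited values. On the same scale C9 ran from 6.59 to 8.10 in the treated pregnant mice and from 9.21 to 9.90 in the treated virgin mice, without overlap.

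C8b, the other gene called lower under every scaling, stood at 8.65, 9.17, 8.92, 9.30 and 9.58 in untreated pregnant and from 9.79 to 10.43 in untreated virgin mice (median 10.08), without overlap. C8b was lower, at -0.98 ± 0.12 (adjusted p = 1.99e-08), and at -0.80 relative to the shift on the deposited values. The other terminal genes C6, C8a and C8g were lower, at -0.39, -0.45 and -0.27 on the joint scale, and none of them was called with arrays centred on their medians. The C6 call was lost without virgin untreated replicate 1, 3 or 5 or pregnant untreated replicate 2, 3 or 4, and the C8a call without virgin untreated replicate 3 or 5 or pregnant untreated replicate 1. Hc, in contrast, was higher by 0.56 ± 0.14 (adjusted p = 0.00132) and at 0.10 on the deposited values (adjusted p = 0.483). Cfi was higher by 0.55 (adjusted p = 1.56e-09) and at 0.09 on the deposited values. C2 and Proc were lower, at -0.29 each, and neither was called with arrays centred on their medians.

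F7, which encodes factor VII, the partner of tissue factor at the start of coagulation, stood at 10.31, 10.60, 10.08, 10.10 and 9.93 in untreated pregnant mice and at 8.72 to 9.03 in untreated virgin mice (median 8.93). The groups were separate. F7 was higher by 1.29 ± 0.15 (adjusted p = 9.04e-09), and by 1.45 relative to the shift on the deposited values.

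Serpina10, whose product inhibits factor Xa on protein Z, stood at 9.24, 9.60, 9.15, 9.27 and 9.61 against 8.08 to 8.40 (median 8.30), and was higher by 1.11 ± 0.17 (adjusted p = 3.32e-06). F5, the cofactor of factor Xa, stood at 10.43, 10.43, 10.39, 10.42 and 10.34 against 9.45 to 9.84 (median 9.70), and was higher by 0.72 ± 0.10 (adjusted p = 1.58e-07). F10, factor X itself, stood at 11.41, 11.52, 11.40, 11.65 and 11.32 against 10.71 to 10.92 (median 10.84), and was higher by 0.64 ± 0.07 (adjusted p = 1.75e-09). For Serpina10, F5 and F10 every untreated pregnant mouse was above every untreated virgin mouse. The smallest differences were on the deposited values, at 0.63 for Serpina10, 0.28 for F5 and 0.17 for F10.

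By role, 5 of 6 procoagulant genes and 3 of 3 fibrinogen genes were higher and 5 of 6 terminal complement genes were lower on the joint scale. Of all probe sets 14% were higher and 17.8% lower. F2 was higher by 0.51, F9 by 0.47, Fga by 0.43, Fgb by 0.28 and Fgg by 0.28, and on the deposited values none of these was called. The second probe set of Fga gave 0.20 (adjusted p = 0.540). Among hepatocyte markers on the joint scale Ttr was called lower, at -0.65, and Hnf4a higher, at 0.26 (adjusted p = 0.0375). Alb, Apoa1, Apob, Ahsg and Cps1 lay between -0.09 and 0.10 and were not called. Of 10 neutrophil markers 8 were higher in the pregnant mice. The part of cell composition in these differences was not tested.

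**Figure D5:**
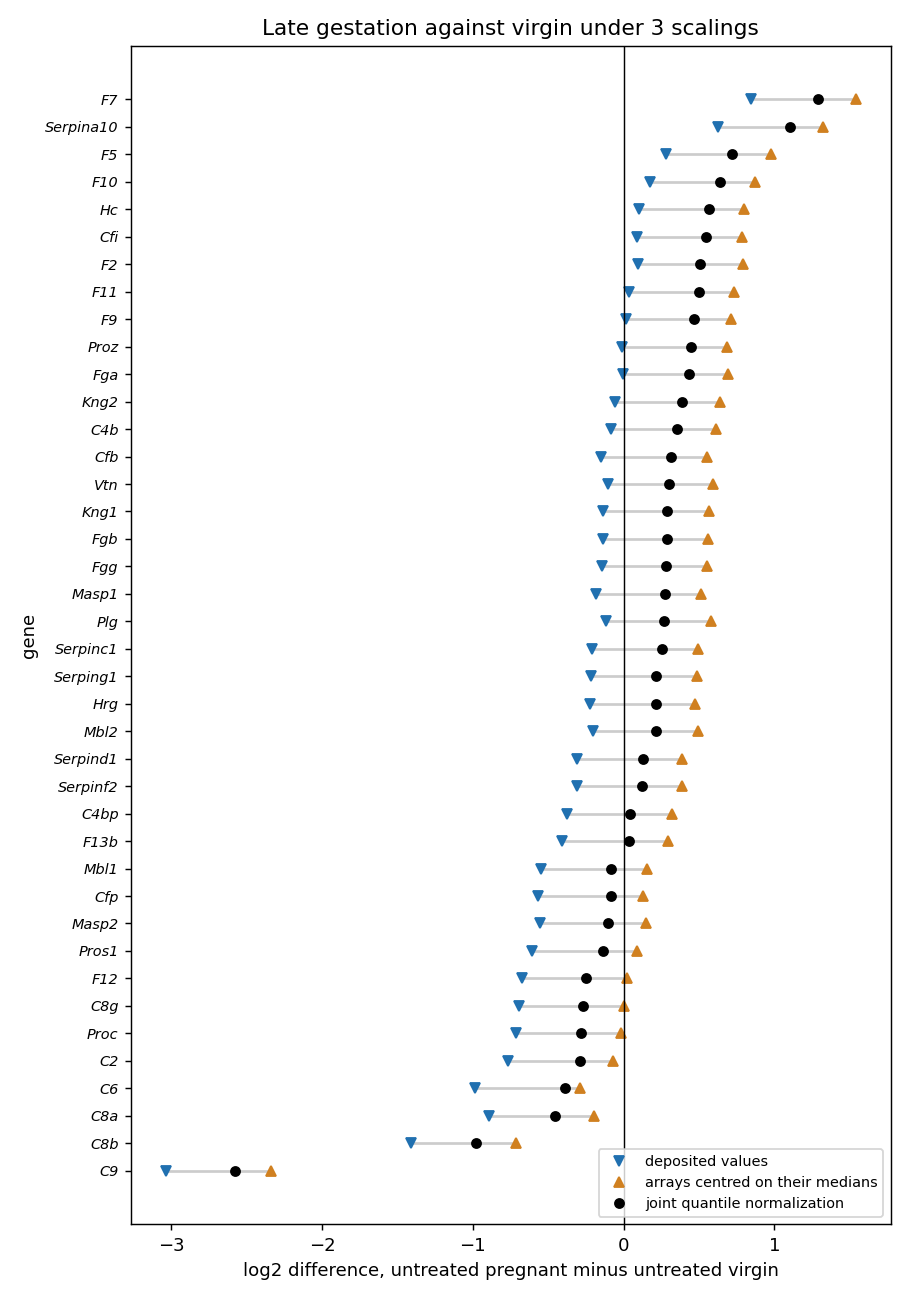
Log2 difference of untreated pregnant minus untreated virgin mice (horizontal axis) for the 40 genes, ordered by the value after joint quantile normalization (circles), with the deposited values (downward triangles) and arrays centred on their medians (upward triangles). C9 lies at -2.58 and F7 at 1.29 on the joint scale, and for most genes between them the sign depends on the scaling.

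Genes of the same pathways outside the 43 were counted from lists by role. The background for rises and falls was 11.5% and 15% with virgin formulation, 1.63% and 2.8% with micro ZnO and 4.77% and 7.18% with nano ZnO, and nothing particular to the lists is read from their counts. Of 12 measured genes of complement recognition and proteases 2 were lower with formulation (Colec10 at -0.40 and C1rl at -0.26), 2 with micro ZnO (Colec10 at -0.42 and Fcna at -0.29) and 0 with nano ZnO. Colec10 encodes a collectin of the lectin branch. Of 17 regulators and receptors 1 was higher (C5ar2, a C5a receptor, at 0.29) and 5 lower with formulation, 1 was lower with micro ZnO and 2 with nano ZnO. Cr1l, which limits the C3 convertases on mouse cells, fell in all 3 virgin arms, by 0.62, 0.34 and 0.29.

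Of 10 further coagulation factors and cofactors 1 was higher and 6 lower in virgin formulation mice, 0 were called with micro ZnO, and 1 was higher and 1 lower with nano ZnO. Ggcx, the carboxylase that modifies the vitamin K dependent factors, fell by 0.31 with formulation and by 0.37 with nano ZnO, and Lman1, the cargo receptor for factors V and VIII, fell by 0.46 with formulation. Of 15 further anticoagulant and fibrinolysis genes 3 were higher and 4 lower with formulation, 2 lower with micro ZnO and 1 with nano ZnO. Tfpi2, which encodes a Kunitz inhibitor, fell by 0.66, 0.45 and 0.61. Of 3 thrombin receptor genes 1 was higher with formulation. In pregnant sunscreen arms 0 genes of these lists were called.

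Late in gestation, with a background of 14% for rises and 17.8% for falls, 2 of the 12 recognition genes were lower on the joint scale, 3 of the 17 regulators were higher and 1 lower, 2 of the 10 coagulation genes were higher and 2 lower, and 3 of the 15 anticoagulant and fibrinolysis genes were higher and 1 lower. Cd55, a decay-accelerating factor, was higher by 0.79 and Serpina1d, an alpha-1-antitrypsin gene with near-identical copies, by 0.89, so the copy measured is uncertain.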

How the data were processed

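Liver RNA of 46 mice was hybridised to 1 array each. The authors deposited log2 values from RMA (background correction, quantile normalization and summarization per probe set), a method named without a version per the submitters' processing notes. Array medians differ between the experiments. Precision is limited by the number of arrays. Of 35512 probe sets, 21789 carried 1 gene symbol, 1621 several and 12102 none in the platform annotation, and the 23410 with a symbol were tested.

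limma 3.58.1 in R 4.3.3 (lmFit and eBayes, two-sided) was fitted over all these probe sets, with 1 fit of the 4 arms per experiment and 1 fit of all 8 groups for differences in response. P-values were Benjamini-Hochberg adjusted over all probe sets tested, and a gene was called under 0.05. The groups share untreated mice across comparisons. For untreated pregnant against virgin mice all arrays were quantile-normalized together. Promoter sequences were read from RefSeq (GRCm38.p6). The code was tested on simulated data. Figures were drawn with matplotlib 3.10.9.

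Genes were named by a rule: per arm, the called genes with the greatest change, up to 6 higher and 6 lower, or the 3 of smallest p where none was called. The genes and lists were chosen with earlier results of these data known. Alternatives were a filter on dim probe sets, all 35512 probe sets, moderation with an intensity trend, array weights and a further quantile normalization. Others were only the compared groups, a replicate block, array interquartile range or clock score as covariate, the mean of a gene's probe sets, and leaving out each array.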

Additional observations from a re-analysis of the deposited data

Results flagged for a closer look

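Single mice stood far from the rest of their group in 16 of 200 sets of values (25 genes in 8 groups), where chance gives about 1 in 20. The 25 genes were read on the same mice, so the sets are not independent and no excess over chance is read from the count. Virgin formulation replicate 1 was the highest of its arm for Hc (9.25, others up to 8.92), Mbl1 (8.43, others up to 7.91) and Serpina10 (9.34, others up to 8.67). Replicate 5 of the same arm was the lowest for Serping1 (11.42, others from 11.72). In the other virgin arms C6 was high in micro ZnO replicate 2 (5.73, others up to 5.26), Proc in untreated replicate 5 (10.38, others up to 10.25) and Serpina10 in nano ZnO replicate 6 (9.004, others up to 8.47).

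Pregnant nano ZnO replicate 1 was the lowest of its arm for 4 genes, C8g (9.71, others from 10.07), Cfi (11.08, others from 11.16), F13b (8.62, others from 9.01) and Hrg (10.55, others from 10.95). In pregnant micro ZnO mice C6 was low in replicate 3 (4.39, others from 5.13) and Cfp high in replicate 4 (7.88, others up to 6.93). In pregnant formulation mice C8b was high in replicate 3 (9.60, others up to 9.26) and F5 low in replicate 1 (9.89, others from 10.13). Hc was high in pregnant untreated replicate 5 (9.14, others up to 8.55).

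The C8b response to formulation differed between the experiments by the interaction term of the limma fit, at 0.77 (pregnant minus virgin, adjusted p = 0.0285). This call was lost in 9 of 23 fits with 1 array left out, and with the interquartile range as a covariate. Against untreated mice C8b was not called in pregnant formulation mice (adjusted p = 0.306).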

How the results depend on the processing

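For named genes, 947 values under an alternative kept their direction and side of the threshold, 178 kept the direction and missed the threshold, and 0 reversed. Values not called in the main fit, as in the pregnant arms, had no call to lose. Averaging the probe sets of a gene altered only Fga, which was not a named gene. The 947 is therefore not a measure of how far the calls held. The calls in virgin formulation mice went from 13 to 8 on a further quantile normalization, 2 when the interquartile range was added as a covariate and 5 when the clock score was. For virgin micro ZnO, 8 became 13 with an intensity trend and robust moderation, 3 with the interquartile range and 0 with the clock score. For virgin nano ZnO, 7 became 4 over all 35512 probe sets, 4 with the interquartile range and 0 with the clock score. For the ZnO arms minus formulation, 4 became 7 without dim probe sets, 7 with the trend, 2 with the interquartile range and 2 with the clock score. The C8b difference between experiments was lost with the interquartile range (0 calls). The micro ZnO difference between experiments gained 1 call, C6, with array weights and also without the 2 pregnant micro ZnO arrays that stood apart. Replicate numbers did not pair the mice (median correlation of same-numbered deviations -0.127 in virgin and 0.0241 in pregnant mice). With the replicate block the calls were 10 in virgin formulation, 4 in virgin micro ZnO, 4 in virgin nano ZnO, 0 in the formulation difference between experiments and 31 in the untreated comparison. Calls lost with the block were C6, Kng1 and Masp2 in formulation, C8g, Cfp, F11 and Hc in micro ZnO, C6, F11 and Kng2 in nano ZnO, and C8b in the difference between experiments (adjusted p = 0.0694). Leaving out 1 array gave 8 to 13 calls for virgin formulation, 5 to 8 for micro ZnO, 4 to 8 for nano ZnO, 3 to 5 for ZnO minus formulation, 0 to 1 for the formulation and the micro ZnO differences between experiments, and 28 to 32 for the untreated comparison. Centring on hepatocyte markers was chosen after seeing the data and gave 24 higher and 7 lower in the untreated comparison. The causes were not tested.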
